A study of Homo sapiens with 12 samples.

Results

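The hypoxia-response genes outside glycolysis are a list of 39 human genes: the subunits of hypoxia-inducible factor (HIF), the enzymes that sense oxygen for it, and genes that HIF is known to induce apart from those of glucose breakdown. Members were the genes on this list with at least 1 probe set annotated to that symbol alone, and this rule uses no measured value. The list itself was chosen with earlier results of these data known. Its shares beside those of all genes are therefore a description, without a test. In all, 38 of the 39 were measured, of 19775 genes on the arrays, by 112 probe sets. CA9 had no probe set annotated to it alone and is not analysed here.

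The arrays were hybridised with RNA from HPB-ALL and KOPT-K1, human cell lines derived from T-cell acute lymphoblastic leukaemia. HPB-ALL cells received 20 µM SAHM1 or an equal amount of its solvent DMSO, and KOPT-K1 cells received the same pair of treatments. SAHM1 is a stapled peptide made after part of MAML1, a co-activator of the NOTCH transcription complex. Treatment lasted 24 hours in every group, and each of the 4 groups had 3 cultures with 1 array each. No oxygen level and no hypoxic culture is named in the labels, and each line is a single established line. HES1, HES4, DTX1, MYC, NRARP and NOTCH3, which NOTCH is known to activate, gave 5 of 6 lower with SAHM1 in HPB-ALL (83.3%, beside 4.38% of all genes). In KOPT-K1, 4 of these 6 were lower (66.7%, beside 13.2%), and none was higher in either line.

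HIF is a pair of proteins, an alpha subunit made by HIF1A or EPAS1 and the partner made by ARNT. In the presence of oxygen the EGLN enzymes hydroxylate the alpha subunit, VHL then marks it for degradation, and HIF1AN hydroxylates it so that it binds its co-activators less well. When oxygen is scarce the alpha subunit accumulates and HIF raises the transcription of genes for blood vessel growth, mitophagy, matrix modification and, through EGLN1 and EGLN3, its own restraint.

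The deposited values are ratios to the mean of the DMSO arrays of the same line, so they hold changes within a line and no expression levels, and the labelled cell type could not be checked against the level of any marker. All values below are log2 of these ratios, where 0 is the DMSO mean of the line. A gene was called at a limma adjusted p under 0.05 over all genes, and errors of changes are standard errors with n = 3 cultures in each group. The SD over all genes was 0.196 to 0.205 on HPB-ALL SAHM1 arrays, against 0.094 to 0.116 on HPB-ALL DMSO arrays. It was 0.251 to 0.267 on KOPT-K1 SAHM1 arrays, against 0.097 to 0.106 on KOPT-K1 DMSO arrays. Probe sets for 18S ribosomal RNA averaged 1.35 to 1.89 on HPB-ALL SAHM1 arrays, against -1.65 to 1.05 on HPB-ALL DMSO arrays. The added hybridisation controls averaged 0.60 to 1.05 on KOPT-K1 SAHM1 arrays, against -0.02 to 0.01 on KOPT-K1 DMSO arrays. The ACTB probe sets at the 5′ end less those at the 3′ end, a sign of RNA integrity, gave -0.41 to -0.09 on HPB-ALL SAHM1 arrays, against -0.03 to 0.05 on HPB-ALL DMSO arrays. In KOPT-K1 the same measure was -0.22 to -0.09 with SAHM1, against -0.01 to 0.01 with DMSO. So this measure was lower with SAHM1 in both lines without overlap, while that of GAPDH overlapped in both lines, and the part of RNA integrity in the results was not tested.

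In HPB-ALL, 11 of the 38 genes fell with SAHM1 and 1 rose. That is 28.9% lower, beside 4.38% of all genes, and 2.63% higher, beside 4.96%. In KOPT-K1, 12 fell and 1 rose, or 31.6% lower beside 13.2% of all genes, and 2.63% higher beside 5.85%. The median change of the 38 genes was -0.10 in HPB-ALL, beside -0.02 over all genes, and -0.19 in KOPT-K1, beside 0.00. The KOPT-K1 median was -0.11 under quantile normalisation and -0.09 without probe sets of the suffix _s_at or _x_at, beside 0.01 over all genes in each setting. Without those probe sets 18 of 30 genes were below 0 in KOPT-K1, beside 48.5% of all genes. In the main analysis it was 30 of 38, beside 50%. The 2 gene sets differ, since 8 genes with only such probe sets dropped out, VEGFA and BHLHE40 among them. The 3 SAHM1 cultures all lay below the 3 DMSO cultures for 16 genes in HPB-ALL (42.1%, beside 15.7% of all genes) and for 26 genes in KOPT-K1 (68.4%, beside 21.6%). This held in both lines for 14 genes (36.8%, beside 4.17%). The 5 widest changes, those of AK4, MIR210HG and BNIP3 in HPB-ALL and of VEGFA and BHLHE40 in KOPT-K1, were 1.97- to 2.19-fold. In bulk RNA of this kind, fewer expressing cells and less RNA per cell cannot be told apart.

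**Figure D1:**
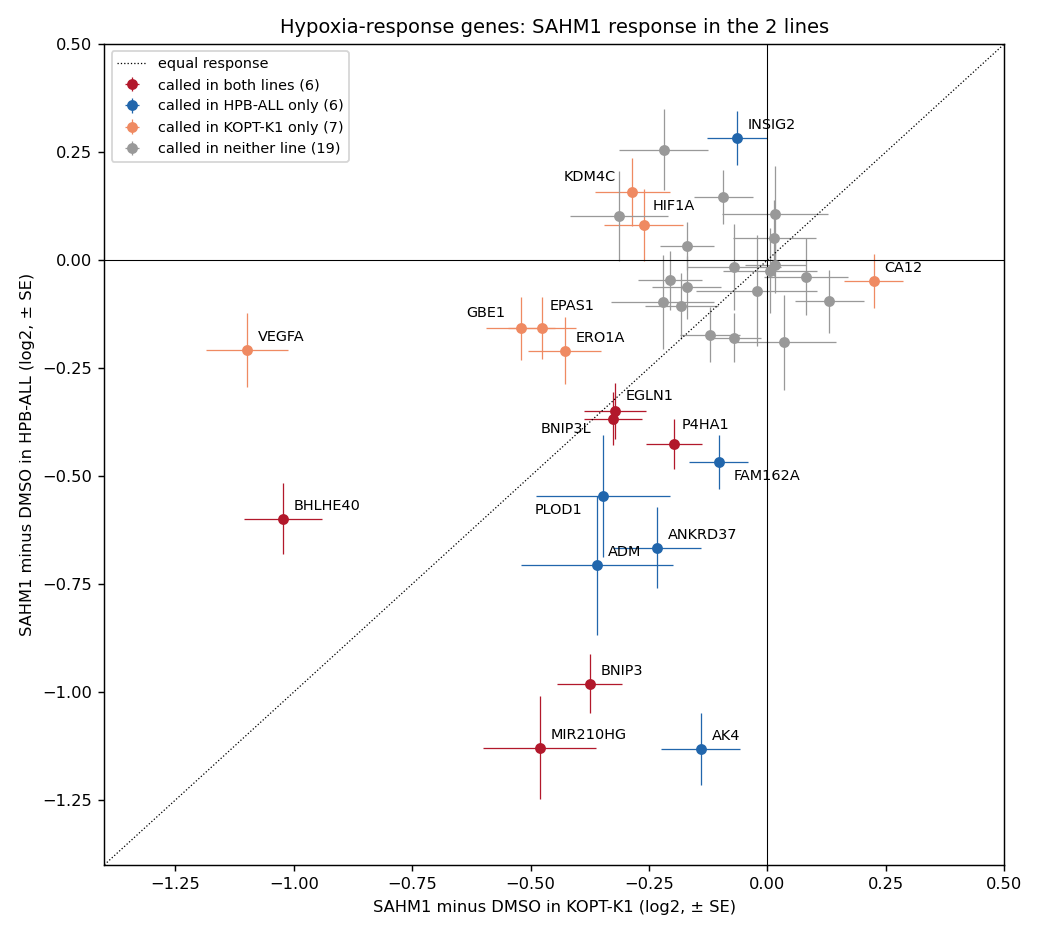
Change with SAHM1 of each of the 38 hypoxia-response genes (points, ± SE), with HPB-ALL on the vertical axis and KOPT-K1 on the horizontal axis, both log2 SAHM1 minus DMSO. The 6 genes called in both lines lie in the lower left, AK4 lies far down near 0 for KOPT-K1, and VEGFA lies far left near -0.21 for HPB-ALL.

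The genes that fell in both lines were 6 of 38: EGLN1, BNIP3, BNIP3L, P4HA1, MIR210HG and BHLHE40. They are 15.8% of the list, where 1.28% of all genes fell in both lines. They make up 54.5% of the 11 that fell in HPB-ALL and 50% of the 12 that fell in KOPT-K1. A further 5 were called lower in HPB-ALL and not called in KOPT-K1, namely AK4, FAM162A, ADM, ANKRD37 and PLOD1. The 6 called lower in KOPT-K1 and not called in HPB-ALL were HIF1A, EPAS1, VEGFA, KDM4C, ERO1A and GBE1. INSIG2 was the 1 gene that rose in HPB-ALL, and CA12 the 1 that rose in KOPT-K1. Across the 38 genes the changes in HPB-ALL and KOPT-K1 had a Pearson r of 0.352, and across all genes an r of -0.136. These correlations are across genes on shared arrays and are given as a description.

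The windows around the start sites of 5 of the 6 genes that fell in both lines are shown because HIF binds DNA at a short core, and the print lets that core be seen. Each sequence is from RefSeq on build GRCh38.p14, runs 5′ to 3′ on the strand of the gene from 250 bases before the start to 50 bases after it, and has the core ACGTG or GCGTG, on either strand, in capitals. The windows are BHLHE40 at chr3:4979187-4979486 on the plus strand, and MIR210HG at chr11:568408-568707, BNIP3 at chr10:131981874-131982173, EGLN1 at chr1:231422238-231422537 and P4HA1 at chr10:73096817-73097116 on the minus strand. MIR210HG is the host transcript of the microRNA miR-210, a known mediator of the hypoxia response, whose mature 3p strand (chr11:568112-568133, minus strand, RefSeq) is printed last with its seed, bases 2 to 8, in capitals and was not itself measured.
BHLHE40: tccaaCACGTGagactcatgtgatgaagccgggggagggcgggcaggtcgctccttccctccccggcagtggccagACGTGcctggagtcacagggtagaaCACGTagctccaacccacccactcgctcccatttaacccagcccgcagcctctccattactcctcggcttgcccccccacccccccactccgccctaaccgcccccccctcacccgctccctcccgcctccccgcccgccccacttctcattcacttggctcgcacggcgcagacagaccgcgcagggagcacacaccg
MIR210HG: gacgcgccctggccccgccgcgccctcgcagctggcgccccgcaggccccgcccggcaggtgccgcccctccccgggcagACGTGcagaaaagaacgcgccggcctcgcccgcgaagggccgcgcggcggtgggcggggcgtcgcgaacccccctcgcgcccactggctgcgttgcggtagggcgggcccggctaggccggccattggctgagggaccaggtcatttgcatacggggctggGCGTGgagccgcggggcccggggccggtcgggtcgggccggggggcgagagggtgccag
BNIP3: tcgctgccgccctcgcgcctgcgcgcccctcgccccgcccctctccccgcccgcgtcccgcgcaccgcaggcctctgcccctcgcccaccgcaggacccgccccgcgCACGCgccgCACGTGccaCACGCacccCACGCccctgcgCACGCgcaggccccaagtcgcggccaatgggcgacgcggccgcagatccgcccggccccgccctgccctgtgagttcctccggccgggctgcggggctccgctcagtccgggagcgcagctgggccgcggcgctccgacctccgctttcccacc
EGLN1: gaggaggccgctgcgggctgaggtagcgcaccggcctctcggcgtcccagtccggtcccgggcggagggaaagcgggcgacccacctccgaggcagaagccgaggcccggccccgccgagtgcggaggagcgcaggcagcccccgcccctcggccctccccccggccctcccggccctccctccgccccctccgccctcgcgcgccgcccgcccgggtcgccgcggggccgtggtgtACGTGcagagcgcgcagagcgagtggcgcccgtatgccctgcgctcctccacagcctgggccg
P4HA1: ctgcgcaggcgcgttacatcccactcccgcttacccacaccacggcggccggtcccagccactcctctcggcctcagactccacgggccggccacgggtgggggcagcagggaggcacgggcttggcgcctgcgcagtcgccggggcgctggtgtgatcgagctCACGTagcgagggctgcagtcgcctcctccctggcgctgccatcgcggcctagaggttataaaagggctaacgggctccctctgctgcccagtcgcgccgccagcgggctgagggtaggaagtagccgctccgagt
hsa-miR-210-3p: cUGUGCGUgugacagcggcuga

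The core was found 6 times in the BNIP3 window, 4 times in that of BHLHE40, 2 times in that of MIR210HG and 1 time each in those of EGLN1 and P4HA1. The palindrome CACGTG, which holds ACGTG on both strands and is also the E-box bound by many basic helix-loop-helix factors, accounts for 2 of the matches in BNIP3 and 2 in BHLHE40. Of the 39 listed genes, CA9 included, 34 had a window in the table, and 28 of these (82.4%) held at least 1 core, where 62.3% of the measured genes with a window did. A gene with several windows was counted once, by the window with the most matches. All 15 genes that fell in either line and had a window held the core in at least 1 window, beside 10 of 16 (62.5%) of those called in neither line. At least 2 cores, where 1 CACGTG counts as 2, were held by 10 of the 15 (66.7%), beside 8 of the 16 (50%). Of the measured genes with a window, 33.8% did. CACGTG was held by 5 of the 15 (33.3%), beside 6 of the 16 (37.5%) and 10.9% of the measured genes with a window. VEGFA and BNIP3L also fell and had no window. These matches describe letters in a window, not bound sites.

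Among the HIF subunits, no gene was called in HPB-ALL and both alpha subunits fell in KOPT-K1. HIF1A changed by 0.08 ± 0.08 (adjusted p = 0.645) in HPB-ALL and by -0.26 ± 0.08 (adjusted p = 0.0449) in KOPT-K1. HIF1A has a single probe set, which was not called in the fit over probe sets (adjusted p = 0.0786). Its call in KOPT-K1 also ended in 9 of the 12 fits that left out 1 array, any of the 6 KOPT-K1 arrays or HPB-ALL DMSO replicate 1, DMSO replicate 3 or SAHM1 replicate 2, with changes of -0.30 to -0.24. ARNT, the common partner, changed by 0.03 ± 0.06 (adjusted p = 0.816) in HPB-ALL and by -0.17 ± 0.06 (adjusted p = 0.0526) in KOPT-K1.

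EPAS1, the second alpha subunit, had values of -0.25, -0.15 and -0.09 in HPB-ALL SAHM1 cultures, against -0.14, 0.05 and 0.07 in HPB-ALL DMSO cultures. In KOPT-K1 its values were -0.44, -0.54 and -0.46 with SAHM1, against -0.01, 0.04 and -0.05 with DMSO. The groups overlapped in HPB-ALL and lay well apart in KOPT-K1. The change was -0.16 ± 0.07, adjusted p = 0.219 in HPB-ALL and -0.48 ± 0.07, adjusted p = 0.000946 in KOPT-K1. The fall of EPAS1 in KOPT-K1 came from 1 of its 3 probe sets: 200878_at changed by -1.39, and the other 2, at -0.19 and 0.16, were not called.

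The oxygen sensors and VHL held 1 gene that moved. EGLN1, the main HIF prolyl hydroxylase and itself a HIF target, had values of -0.39, -0.28 and -0.39 in HPB-ALL SAHM1 cultures, against 0.05, -0.07 and 0.01 in HPB-ALL DMSO cultures. Its KOPT-K1 values were -0.28, -0.34 and -0.36 with SAHM1, against -0.03, 0.10 and -0.08 with DMSO. All SAHM1 cultures of EGLN1 lay below all DMSO cultures of their line. EGLN1 changed by -0.35 ± 0.07 (adjusted p = 0.00553) in HPB-ALL and by -0.32 ± 0.07 (adjusted p = 0.00498) in KOPT-K1. Of its 4 probe sets, 223046_at was called in both lines, at -0.48 in HPB-ALL and -0.36 in KOPT-K1. Probe set 221497_x_at of EGLN1 was called in HPB-ALL, at -0.63, and stood at -0.07 in KOPT-K1, a difference that was itself called (adjusted p = 0.0159). Probe set 224314_s_at was called in KOPT-K1, at -0.73, and stood at -0.30 in HPB-ALL. Both EGLN1 calls ended without probe sets of the suffix _s_at or _x_at, at -0.24 in HPB-ALL (adjusted p = 0.141) and -0.25 in KOPT-K1 (adjusted p = 0.0736), and under quantile normalisation, at -0.31 (adjusted p = 0.124) in HPB-ALL and -0.19 (adjusted p = 0.474) in KOPT-K1.

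The other 4 sensing and turnover genes were called in neither line. EGLN2, a second prolyl hydroxylase, changed by -0.07 ± 0.13 in HPB-ALL and by -0.02 ± 0.13 in KOPT-K1. EGLN3, a hydroxylase that HIF induces in many tissues, changed by 0.11 ± 0.11 in HPB-ALL and by 0.02 ± 0.11 in KOPT-K1. HIF1AN, the asparagine hydroxylase, changed by -0.06 ± 0.07 in HPB-ALL and by -0.17 ± 0.07 in KOPT-K1. VHL, which binds the hydroxylated alpha subunit, changed by -0.03 ± 0.10 in HPB-ALL and by 0.01 ± 0.10 in KOPT-K1. The KOPT-K1 SAHM1 cultures of EGLN2 and EGLN3 spread widely, and their standard errors were above the median of 0.085 over all genes.

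Mitochondrial genes were the group with the most calls in HPB-ALL, where 4 of 4 fell, and 2 of 4 fell in KOPT-K1. Of all genes, 4.38% fell in HPB-ALL and 13.2% in KOPT-K1. The groups named here and below hold few genes, so a single call says little about a group. BNIP3, an outer membrane protein that directs mitochondria to autophagy, had values of -1.11, -0.96 and -0.87 in HPB-ALL SAHM1 cultures, against 0.06, -0.02 and -0.03 in HPB-ALL DMSO cultures. Its KOPT-K1 values were -0.40, -0.35 and -0.38 with SAHM1, against -0.06, 0.04 and 0.02 with DMSO. The SAHM1 cultures lay below the DMSO cultures in both lines, and further below them in HPB-ALL. BNIP3 changed by -0.98 ± 0.07, adjusted p = 1.1e-05 in HPB-ALL, a level 1.97-fold lower, and by -0.38 ± 0.07, adjusted p = 0.00271 in KOPT-K1. Both probe sets of BNIP3 were called in both lines.

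BNIP3L, the paralog of BNIP3 that clears mitochondria from maturing red cells, had values of -0.32, -0.41 and -0.37 in HPB-ALL SAHM1 cultures, against 0.04, 0.00 and -0.04 in HPB-ALL DMSO cultures. In KOPT-K1 they were -0.34, -0.41 and -0.23 with SAHM1, against -0.01, 0.02 and -0.02 with DMSO. The groups did not overlap in either line. BNIP3L changed by -0.37 ± 0.06, adjusted p = 0.00289 in HPB-ALL and by -0.33 ± 0.06, adjusted p = 0.00325 in KOPT-K1.

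AK4, a mitochondrial adenylate kinase, had values of -1.21, -1.01 and -1.21 in HPB-ALL SAHM1 cultures, against 0.09, -0.07 and -0.06 in HPB-ALL DMSO cultures. In KOPT-K1 they were -0.10, -0.28 and -0.05 with SAHM1, against 0.01, -0.09 and 0.07 with DMSO. AK4 stood far below its DMSO cultures in HPB-ALL, while the KOPT-K1 groups overlapped. Its change was -1.13 ± 0.08, adjusted p = 1.43e-05 in HPB-ALL, or 2.19-fold lower, and -0.14 ± 0.08, adjusted p = 0.263 in KOPT-K1. The 4 probe sets of AK4 differed in HPB-ALL: 225342_at changed by -2.35 and 204348_s_at by -1.35, both called, and the other 2, at -0.48 and -0.35, were not called.

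FAM162A, a mitochondrial protein induced by hypoxia, had values of -0.54, -0.41 and -0.47 in HPB-ALL SAHM1 cultures, against 0.00, 0.04 and -0.06 in HPB-ALL DMSO cultures. The KOPT-K1 values of FAM162A were -0.04, -0.10 and -0.18 with SAHM1, against 0.01, 0.02 and -0.04 with DMSO. It separated the groups in HPB-ALL and overlapped in KOPT-K1. The change in FAM162A was -0.47 ± 0.06, adjusted p = 0.000732 in HPB-ALL and -0.10 ± 0.06, adjusted p = 0.275 in KOPT-K1. Of its 5 probe sets, 4 were called lower in HPB-ALL and 2 in KOPT-K1. In KOPT-K1, 221533_at stood at 0.27, not called, with its SAHM1 cultures above the DMSO cultures, and the others at -0.24 to -0.12. Only 1 of the 5, 235850_at, was called in the difference between the lines, at -0.74.

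**Figure D2:**
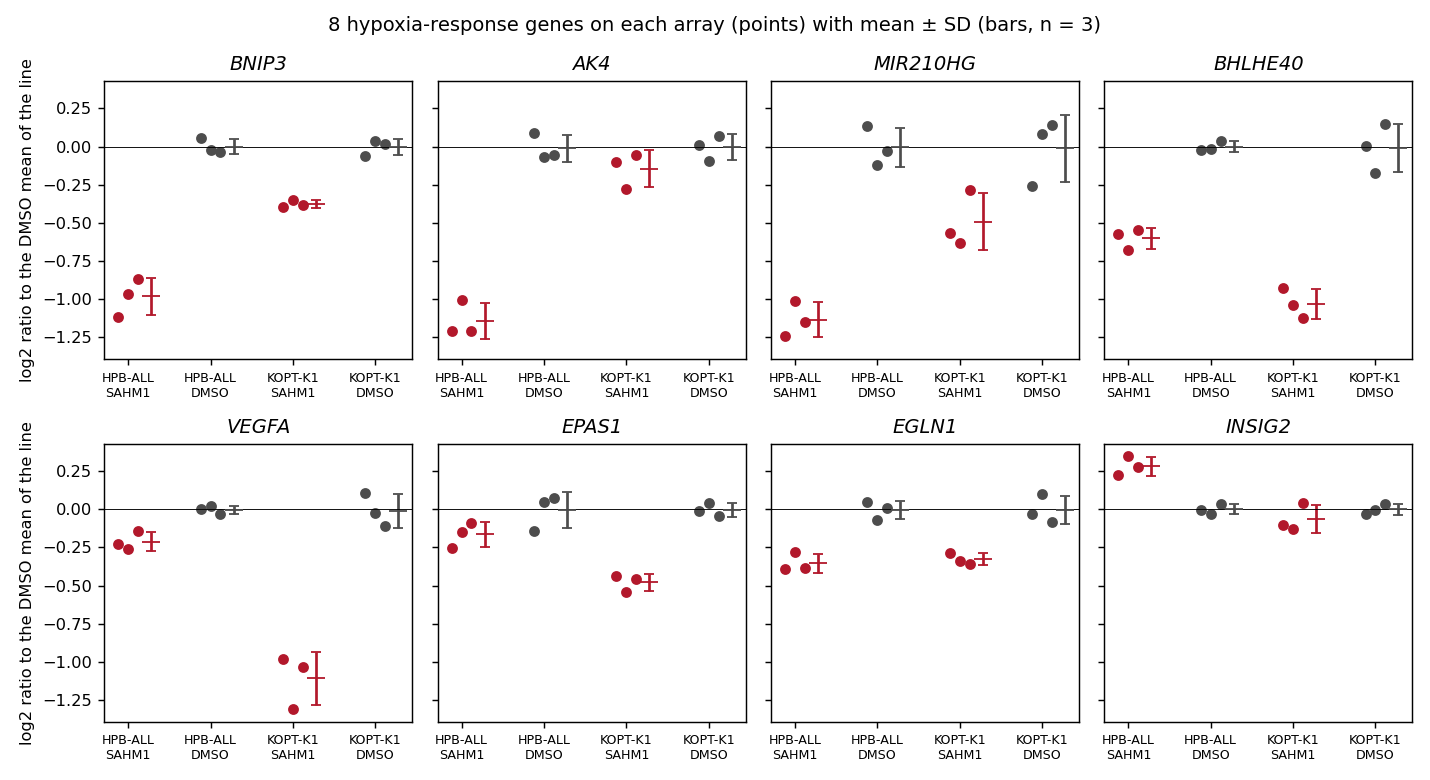
Value of 8 of the genes on each of the 12 arrays (points; log2 ratio to the DMSO mean of the line), with the mean ± SD of each group (n = 3). BNIP3, AK4 and MIR210HG are lowest in the HPB-ALL SAHM1 cultures, VEGFA, BHLHE40 and EPAS1 in the KOPT-K1 SAHM1 cultures, EGLN1 is below its DMSO cultures in both lines, and INSIG2 is above its DMSO cultures in HPB-ALL.

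Secreted factors gave 1 lower of 4 in each line, on different genes, beside 4.38% of all genes in HPB-ALL and 13.2% in KOPT-K1. VEGFA, the growth factor for blood vessels, had values of -0.23, -0.26 and -0.14 in HPB-ALL SAHM1 cultures, against 0.00, 0.02 and -0.03 in HPB-ALL DMSO cultures. Its KOPT-K1 values were -0.98, -1.31 and -1.03 with SAHM1, against 0.11, -0.02 and -0.11 with DMSO. The SAHM1 cultures of VEGFA lay below the DMSO cultures in both lines, by far more in KOPT-K1. The change was -0.21 ± 0.09, adjusted p = 0.17 in HPB-ALL and -1.10 ± 0.09, adjusted p = 5.94e-06 in KOPT-K1, where VEGFA was 2.14-fold lower. All 4 probe sets of VEGFA were called in KOPT-K1, at -1.54 to -0.66, and 0 of 4 in HPB-ALL, at -0.37 to -0.04.

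ADM, which encodes the vessel-widening peptide adrenomedullin, had values of -0.57, -0.87 and -0.76 in HPB-ALL SAHM1 cultures, against -0.38, 0.00 and 0.30 in HPB-ALL DMSO cultures. In KOPT-K1 they were -0.25, -0.19 and -0.65 with SAHM1, against 0.06, -0.17 and 0.09 with DMSO. No SAHM1 culture of ADM reached a DMSO culture of its line, though the DMSO cultures of HPB-ALL were spread over a wide range. ADM changed by -0.71 ± 0.16, adjusted p = 0.0163 in HPB-ALL and by -0.36 ± 0.16, adjusted p = 0.14 in KOPT-K1. The HPB-ALL call ended when HPB-ALL DMSO replicate 2, DMSO replicate 3, SAHM1 replicate 2 or SAHM1 replicate 3 was left out, with changes of -0.69 to -0.54. ANGPTL4 and STC2, the other secreted factors, were called in neither line.

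Among the transcriptional regulators, 1 of 5 fell in each line, beside 4.38% of all genes in HPB-ALL and 13.2% in KOPT-K1. It was the same gene in both lines. BHLHE40, a repressor of the basic helix-loop-helix family, had values of -0.57, -0.68 and -0.55 in HPB-ALL SAHM1 cultures, against -0.02, -0.02 and 0.04 in HPB-ALL DMSO cultures. Its KOPT-K1 values were -0.93, -1.04 and -1.12 with SAHM1, against 0.01, -0.17 and 0.14 with DMSO. Both lines separated cleanly, with the lower values in KOPT-K1. BHLHE40 changed by -0.60 ± 0.08, adjusted p = 0.000928 in HPB-ALL and by -1.02 ± 0.08, adjusted p = 7.43e-06 in KOPT-K1, where it was 2.03-fold lower. Both of its probe sets were called in KOPT-K1, at -1.06 and -0.99, and 1 of the 2 in HPB-ALL, at -0.98, with the other at -0.22.

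RORA, a nuclear receptor, was called in neither line, at 0.26 ± 0.09 (adjusted p = 0.122) in HPB-ALL and -0.22 ± 0.09 (adjusted p = 0.127) in KOPT-K1. Left-out arrays changed this for RORA: without HPB-ALL DMSO replicate 1 it was called in both lines, at 0.39 in HPB-ALL and -0.22 in KOPT-K1. BHLHE41, a paralog of BHLHE40, CITED2, which competes with HIF for its co-activators, and ZNF395 were called in neither line.

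MIR210HG, the host transcript of miR-210, had values of -1.24, -1.01 and -1.15 in HPB-ALL SAHM1 cultures, against 0.13, -0.12 and -0.03 in HPB-ALL DMSO cultures. In KOPT-K1 they were -0.56, -0.63 and -0.28 with SAHM1, against -0.26, 0.09 and 0.14 with DMSO. The gap between groups was wide in HPB-ALL and narrow in KOPT-K1, where SAHM1 replicate 3 lay just below DMSO replicate 1. The change was -1.13 ± 0.12, adjusted p = 0.000181 in HPB-ALL, or 2.19-fold lower, and -0.48 ± 0.12, adjusted p = 0.0146 in KOPT-K1. The KOPT-K1 call ended without KOPT-K1 DMSO replicate 2, DMSO replicate 3 or SAHM1 replicate 2, with changes of -0.43 to -0.41. Probe set 230710_at of MIR210HG changed by -1.83 in HPB-ALL and -0.60 in KOPT-K1, both called, and 236480_at by -0.43 in HPB-ALL and -0.36 in KOPT-K1, neither called.

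ANKRD37, an ankyrin repeat protein and known HIF target, had values of -0.83, -0.66 and -0.53 in HPB-ALL SAHM1 cultures, against 0.09, -0.01 and -0.09 in HPB-ALL DMSO cultures. The KOPT-K1 values of ANKRD37 were -0.14, -0.43 and -0.14 with SAHM1, against -0.01, 0.00 and 0.00 with DMSO. Neither line showed overlap. The gene changed by -0.67 ± 0.09, adjusted p = 0.00104 in HPB-ALL and by -0.23 ± 0.09, adjusted p = 0.101 in KOPT-K1. One probe set of ANKRD37, 227337_at, was called in both lines, at -1.05 in HPB-ALL and -0.47 in KOPT-K1, and the other, 242548_x_at, stood at -0.28 in HPB-ALL and 0.01 in KOPT-K1, not called.

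ERO1A, an oxidase of the endoplasmic reticulum that helps form disulphide bonds, had values of -0.25, -0.14 and -0.25 in HPB-ALL SAHM1 cultures, against 0.04, -0.08 and 0.04 in HPB-ALL DMSO cultures. Its KOPT-K1 values were -0.27, -0.44 and -0.58 with SAHM1, against 0.01, -0.03 and 0.01 with DMSO. ERO1A lay below the DMSO cultures in every SAHM1 culture of both lines. It changed by -0.21 ± 0.08, adjusted p = 0.12 in HPB-ALL and by -0.43 ± 0.08, adjusted p = 0.00265 in KOPT-K1. INSIG2, which restrains cholesterol synthesis, rose in HPB-ALL, at 0.28 ± 0.06, adjusted p = 0.0147, and stood at -0.06 ± 0.06, adjusted p = 0.522 in KOPT-K1. The rise of INSIG2 was not called without HPB-ALL DMSO replicate 2 or SAHM1 replicate 2, at 0.25 to 0.27. NDRG1, WSB1 and TMEM45A were called in neither line.

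The collagen hydroxylases, which modify procollagen in the endoplasmic reticulum, gave 2 lower of 4 in HPB-ALL and 1 lower of 4 in KOPT-K1. The shares of all genes were 4.38% and 13.2%. P4HA1, a catalytic subunit of the prolyl hydroxylase, had values of -0.50, -0.41 and -0.37 in HPB-ALL SAHM1 cultures, against -0.03, 0.03 and -0.01 in HPB-ALL DMSO cultures. In KOPT-K1 they were -0.22, -0.17 and -0.21 with SAHM1, against 0.05, -0.07 and 0.02 with DMSO. P4HA1 separated its groups in both lines. It changed by -0.43 ± 0.06, adjusted p = 0.000927 in HPB-ALL and by -0.20 ± 0.06, adjusted p = 0.0332 in KOPT-K1. The KOPT-K1 value of P4HA1 is a mean over probe sets that moved apart: 207543_s_at changed by -0.82 in HPB-ALL and -0.71 in KOPT-K1, both called, and 243335_at by -0.03 in HPB-ALL and 0.31 in KOPT-K1, neither called. That call ended without KOPT-K1 DMSO replicate 1, DMSO replicate 3 or any of the 3 KOPT-K1 SAHM1 arrays, with changes of -0.21 to -0.17, and the direction turned, to a called 0.31, when probe sets with the suffix _s_at or _x_at were left out. That setting also ended the HPB-ALL call of P4HA1, at -0.03 (adjusted p = 0.929).

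PLOD1, a lysyl hydroxylase, had values of -0.41, -0.64 and -0.64 in HPB-ALL SAHM1 cultures, against -0.33, 0.22 and 0.06 in HPB-ALL DMSO cultures. Its KOPT-K1 values were -0.24, -0.46 and -0.39 with SAHM1, against 0.25, -0.09 and -0.20 with DMSO. PLOD1 did not overlap in either line, but its DMSO cultures were spread over a range wider than the change in each line. The change was -0.55 ± 0.14, adjusted p = 0.0294 in HPB-ALL and -0.35 ± 0.14, adjusted p = 0.106 in KOPT-K1. The HPB-ALL call ended without HPB-ALL DMSO replicate 2, DMSO replicate 3, SAHM1 replicate 2 or SAHM1 replicate 3, at -0.51 to -0.43. P4HA2 and PLOD2 were called in neither line.

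GBE1, the glycogen branching enzyme, had values of -0.19, -0.12 and -0.17 in HPB-ALL SAHM1 cultures, against 0.10, -0.10 and -0.01 in HPB-ALL DMSO cultures. The KOPT-K1 values of GBE1 were -0.38, -0.64 and -0.54 with SAHM1, against 0.02, -0.01 and -0.01 with DMSO. The KOPT-K1 groups lay far apart and the HPB-ALL groups just missed each other. GBE1 changed by -0.16 ± 0.07, adjusted p = 0.228 in HPB-ALL and by -0.52 ± 0.07, adjusted p = 0.000568 in KOPT-K1. PPP1R3C, which targets a phosphatase to glycogen, was called in neither line.

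KDM4C, a histone lysine demethylase that uses oxygen, had values of 0.16, 0.20 and 0.10 in HPB-ALL SAHM1 cultures, against 0.04, -0.10 and 0.05 in HPB-ALL DMSO cultures. In KOPT-K1 they were -0.14, -0.39 and -0.34 with SAHM1, against 0.11, -0.04 and -0.07 with DMSO. The SAHM1 cultures of KDM4C lay above the DMSO cultures in HPB-ALL and below them in KOPT-K1. It changed by 0.16 ± 0.08, adjusted p = 0.273 in HPB-ALL and by -0.29 ± 0.08, adjusted p = 0.0246 in KOPT-K1. One of its 4 probe sets was called, 244385_at at -1.08 in KOPT-K1, and the gene's call ended without KOPT-K1 DMSO replicate 1, SAHM1 replicate 2 or SAHM1 replicate 3, at -0.26 to -0.23. KDM3A and KDM4B, the other histone demethylases, were called in neither line as genes.

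CA12, a carbonic anhydrase of the cell surface that helps export acid, was the 1 gene that rose in KOPT-K1, at 0.22 ± 0.06, adjusted p = 0.0265, and it stood at -0.05 ± 0.06, adjusted p = 0.731 in HPB-ALL. The rise came from 1 of its 7 probe sets, 210735_s_at at 0.96. It was not called without any 1 of the 3 KOPT-K1 DMSO arrays or SAHM1 replicate 2, at 0.18 to 0.23. The 18 genes called neither in a line nor in the difference between lines had changes that ran from -0.19 to 0.14 in HPB-ALL and from -0.31 to 0.13 in KOPT-K1.

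At the level of probe sets, 20 of the 112 fell in HPB-ALL (17.9%, beside 2.06% of all probe sets) and 1 rose (0.893%, beside 3.09%). In KOPT-K1, 30 fell (26.8%, beside 9.79%) and 2 rose (1.79%, beside 4.77%). The response differed between the lines for 23 probe sets, where 11.7% of all did: 9 were lower in HPB-ALL (8.04%, beside 3.22%) and 14 higher there (12.5%, beside 8.5%). Several genes that were not called as genes held a called probe set. KDM3A had 212689_s_at lower in both lines, at -0.31 in HPB-ALL and -0.26 in KOPT-K1. KDM4B had 1 probe set lower, at -0.71, and another higher, at 0.44, in KOPT-K1, and 1 lower in HPB-ALL, at -0.61. ARNT had 2 of 7 lower in KOPT-K1, at -0.54 and -0.47, and WSB1 had 2 of 5, at -0.80 and -0.69. ZNF395 had 1 of 3 lower in KOPT-K1, at -0.44. RORA, called as a gene only in the difference, had 1 of 8 lower in KOPT-K1, at -0.79. STC2 had 203439_s_at called in the difference, at 0.44.

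**Figure D3:**
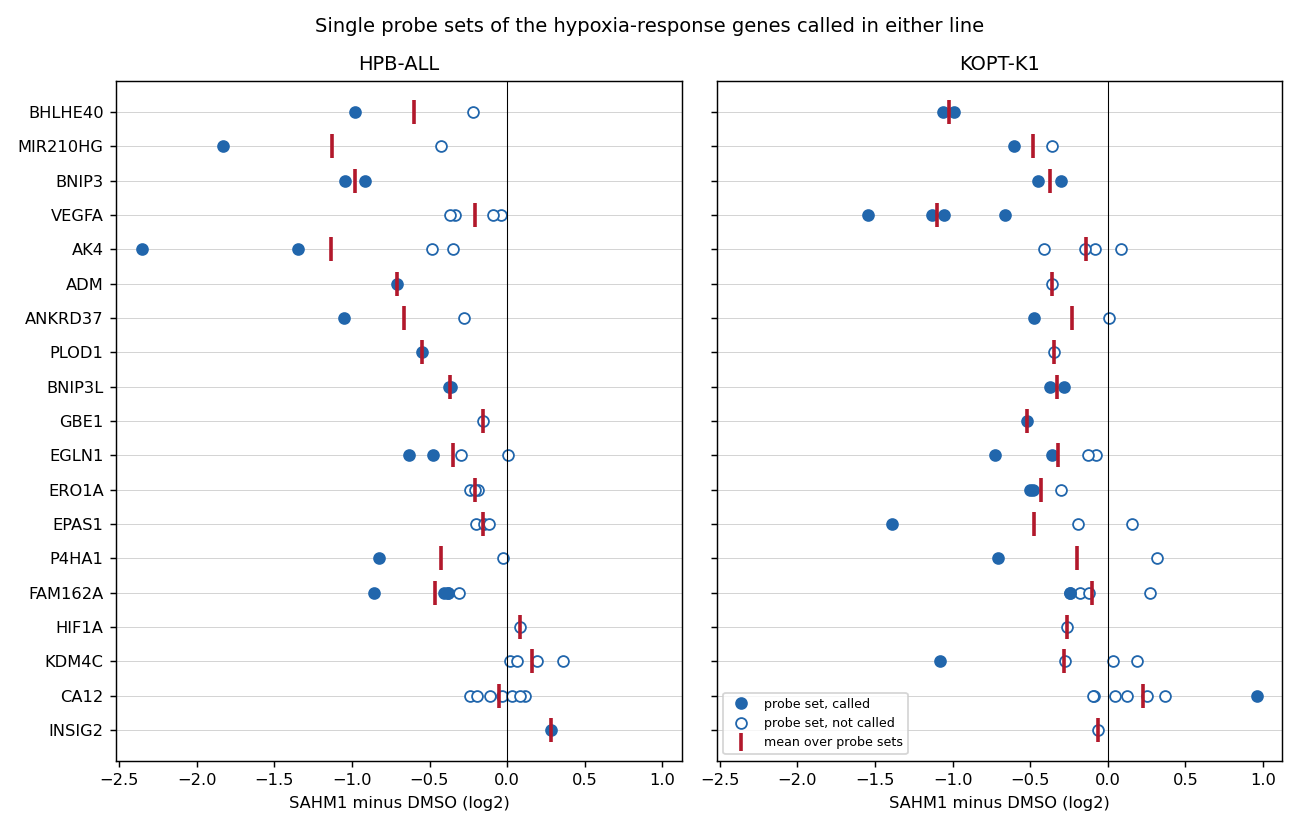
Change with SAHM1 of each probe set (circles, filled where called) of the 19 genes called in either line, in HPB-ALL (left) and KOPT-K1 (right), with the mean over the probe sets of a gene as a red bar; the axis is log2 SAHM1 minus DMSO. BNIP3, BNIP3L and, in KOPT-K1, VEGFA moved on every probe set, while the fall of EPAS1 in KOPT-K1 and those of AK4 and P4HA1 in HPB-ALL came from some of theirs.

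The response differed between the lines for 12 of the 38 genes (31.6%, beside 16.8% of all genes). In 5 the value was lower in HPB-ALL (13.2%, beside 5.41%), and in 7 it was higher there (18.4%, beside 11.4%). AK4 had the widest gap, -0.99 ± 0.12, adjusted p = 0.000263 for HPB-ALL minus KOPT-K1, followed by VEGFA at 0.89 ± 0.12, adjusted p = 0.000669. MIR210HG differed by -0.65 ± 0.17, adjusted p = 0.0208, BNIP3 by -0.61 ± 0.10, adjusted p = 0.00151 and FAM162A by -0.36 ± 0.09, adjusted p = 0.0137, all lower in HPB-ALL. ANKRD37 was also lower there, at -0.43 ± 0.13, adjusted p = 0.0406. Under quantile normalisation, which itself narrows the wider SAHM1 arrays, the difference of VEGFA was 0.46 (limma, adjusted p = 0.133) and no longer called. AK4 and BNIP3 were the 2 genes that kept their call.

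The genes higher in HPB-ALL in this comparison included 4 that fell in KOPT-K1 and were not called in HPB-ALL. Apart from VEGFA these were KDM4C, at 0.44 ± 0.11, adjusted p = 0.0175, GBE1, at 0.36 ± 0.10, adjusted p = 0.0303, and EPAS1, at 0.32 ± 0.10, adjusted p = 0.0489. BHLHE40, which fell in both lines, differed by 0.42 ± 0.12, adjusted p = 0.0258, INSIG2 by 0.35 ± 0.09, adjusted p = 0.0194 and RORA by 0.475 ± 0.13, adjusted p = 0.0295. Of the 8 probe sets of RORA, 2 were called in this difference, 210426_x_at at 1.67 and 210479_s_at at 1.58. Its lowest probe set went the other way, at -0.34, not called. Leaving out 1 of the 12 arrays ended the call of EPAS1 for every array but HPB-ALL SAHM1 replicate 1 and HPB-ALL DMSO replicate 3 (0.25 to 0.35), and that of RORA for every array but KOPT-K1 SAHM1 replicate 3 and HPB-ALL DMSO replicate 1 (0.40 to 0.49). It ended that of GBE1 for every array but HPB-ALL SAHM1 replicate 1, HPB-ALL DMSO replicate 1 and KOPT-K1 SAHM1 replicate 1 (0.30 to 0.37), and that of ANKRD37 for every array but HPB-ALL SAHM1 replicate 3, HPB-ALL DMSO replicate 3 and KOPT-K1 SAHM1 replicate 2 (-0.44 to -0.36). The call of BHLHE40 ended without HPB-ALL SAHM1 replicate 1 or 3, HPB-ALL DMSO replicate 2, KOPT-K1 SAHM1 replicate 3 or KOPT-K1 DMSO replicate 1 or 3 (0.35 to 0.42). INSIG2 lost its call without HPB-ALL SAHM1 replicate 2 (0.31), and MIR210HG without HPB-ALL SAHM1 replicate 1 (-0.59). The difference of HIF1A, 0.34 and not called, was called without HPB-ALL SAHM1 replicate 1, at 0.43, and that of CA12, -0.27, without KOPT-K1 SAHM1 replicate 1 or HPB-ALL SAHM1 replicate 2, at -0.32 to -0.31. EGLN1 and BNIP3L, which fell in both lines, were not called in the difference.

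The 18S signal moved with SAHM1 in HPB-ALL and the hybridisation controls moved with it in KOPT-K1, and each was also entered as a term in the fit. With the 18S signal as a term, AK4 stood at -1.27 (adjusted p = 0.0039), MIR210HG at -1.33 (adjusted p = 0.0194) and BNIP3 at -1.04 (adjusted p = 0.00447) in HPB-ALL, and these 3 were the genes still called lower (7.89%, beside 0.106% of all genes in that fit). BHLHE40, at -0.54, and ANKRD37, at -0.75, were not called in that fit. ADM stood at -0.21 and PLOD1 at -0.14. With the hybridisation controls as a term, VEGFA stood at -1.09 (adjusted p = 0.00108), BHLHE40 at -0.96 (adjusted p = 0.00164), EPAS1 at -0.49 (adjusted p = 0.0299) and GBE1 at -0.40 (adjusted p = 0.0465) in KOPT-K1, and HIF1A at -0.09. Those 4 called genes were 10.5%, beside 2.56% of all genes in that fit. Each of these signals separated SAHM1 from DMSO arrays of its line without overlap, and beyond these fits its part in the results was not tested. Quantile normalisation gives all arrays 1 distribution, so it narrows the wider SAHM1 arrays and widens the narrower DMSO arrays. The KOPT-K1 changes, on the widest arrays, became smaller. Smaller changes and lost calls on that scale are partly fixed by this construction. VEGFA then stood at -0.62 and BHLHE40 at -0.58 in KOPT-K1, and these were the 2 genes still called lower there (5.26%, beside 0.42% of all genes). In HPB-ALL, 8 were called lower (21.1%, beside 0.85%). EPAS1, at -0.29, GBE1, at -0.32, MIR210HG, at -0.30, and BNIP3, at -0.23, were not called in KOPT-K1 on that scale. The difference of BHLHE40 between HPB-ALL and KOPT-K1 was 0.05 there.

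**Figure D4:**
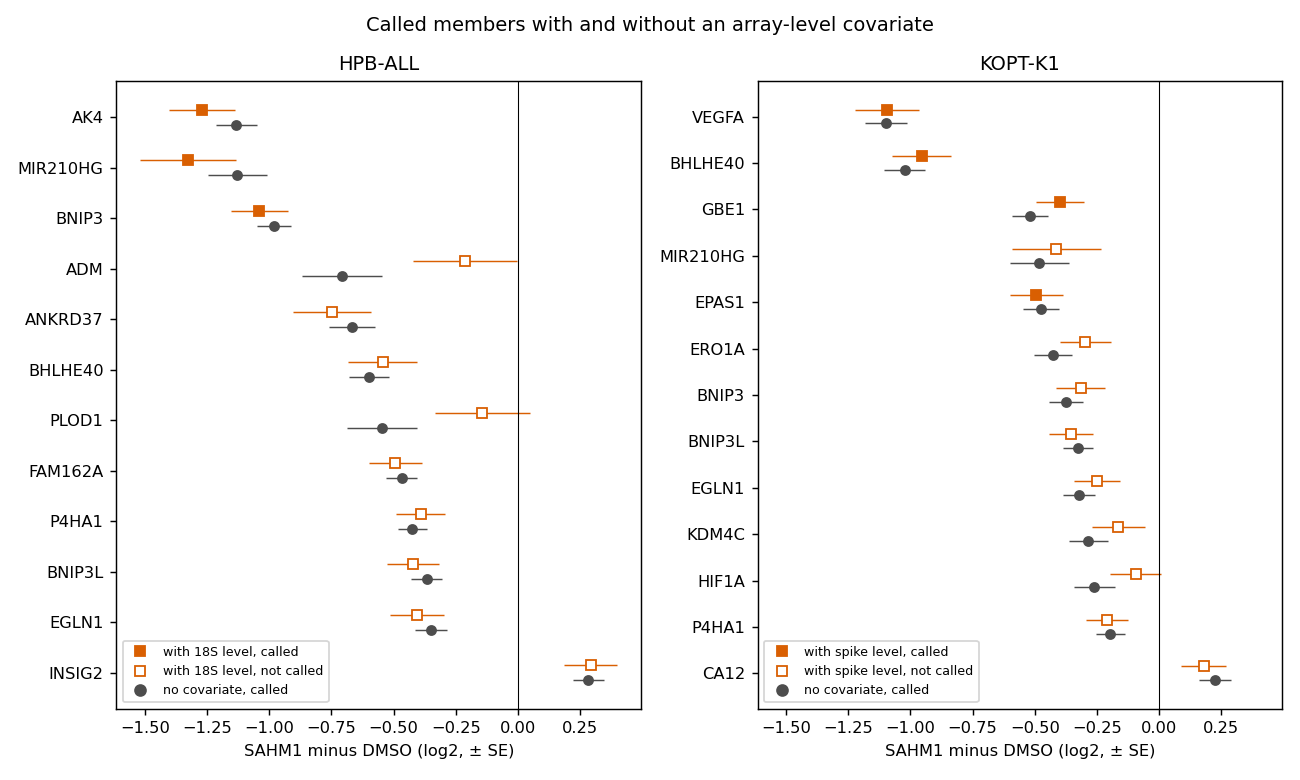
Change with SAHM1 (log2 SAHM1 minus DMSO, ± SE) of the genes called in HPB-ALL (left) and KOPT-K1 (right), without a term for array signal (grey circles) and with the 18S signal or the hybridisation controls as a term (orange squares, filled where called). AK4, MIR210HG and BNIP3 in HPB-ALL, and VEGFA, BHLHE40, GBE1 and EPAS1 in KOPT-K1, keep their calls; ADM and PLOD1 move close to 0.

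Glycolysis genes known as HIF targets gave the nearest list for comparison. Of 20 listed, 19 were measured, and 16 fell in HPB-ALL (84.2%, beside 4.38% of all genes), with a median of -0.43. In KOPT-K1, 8 fell (42.1%, beside 13.2%), with a median of -0.19. None was higher in either line. The 38 hypoxia-response genes outside glycolysis had 28.9% lower in HPB-ALL and 31.6% in KOPT-K1, as given above.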

How the data were processed

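Gene expression was measured on 12 Affymetrix arrays of 54675 probe sets, 3 for each of 4 groups. RMA had been applied by the authors, per the submitters' processing notes; its version is not given in the sources used here. Each deposited value is a linear ratio, from 0.0827 to 6.98. Its mean over the DMSO arrays of a line was 1 (within 1e-06) for all 54675 probe sets in both lines, so levels, and with them a filter on low values, are not given. Their log2 was taken here. The 41097 probe sets with exactly 1 symbol in the platform annotation were averaged, with equal weight, to 19775 genes. Probe sets with several symbols (1801) or unlisted (11777) took part only in the fit over probe sets. No pair of arrays held identical values.

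One linear model per gene, with a mean for each of the 4 groups over all 12 arrays, was fitted in limma 3.58.1 (R 4.3.3) and moderated with eBayes. There were 8 residual degrees of freedom, or 12.6 after moderation over genes. Tests were two-sided, with Benjamini-Hochberg adjustment over all genes or all probe sets and calls under 0.05. Precision is set by the number of arrays: the median standard error was 0.085 on the log2 scale in both lines. The procedure was tested on simulated data. The labels do not say how the cultures were separated, so p-values measure the spread between these cultures, which may be technical.

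The members and gene lists were chosen with earlier results of these data known. Genes called in a line or in the difference are named with both changes. The value of every array is given for the 16 of them with the largest change in either line. The 8 genes of the oxygen-sensing core are given whether called or not. Probe sets are given for many, but not all, of the genes where they differ. Lists are described by counts and medians, without a test. Alternatives tried were median centring, quantile normalisation, the median over probe sets, leaving out probe sets with the suffix _s_at or _x_at, array weights, each line alone, the 18S signal or the hybridisation controls as a term, the replicate number as a block, and leaving out each array.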

Additional observations from a re-analysis of the deposited data

Results flagged for a closer look

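For 12 of the 38 genes the response to SAHM1 differed between HPB-ALL and KOPT-K1 by a test of the difference itself (limma, adjusted over all genes), beside 16.8% of all genes. HPB-ALL minus KOPT-K1 was -0.99 for AK4, -0.65 for MIR210HG, -0.61 for BNIP3, -0.43 for ANKRD37 and -0.36 for FAM162A. It was 0.89 for VEGFA, 0.475 for RORA, 0.44 for KDM4C, 0.42 for BHLHE40, 0.36 for GBE1, 0.35 for INSIG2 and 0.32 for EPAS1. AK4 and BNIP3 kept this call under all 20 alternatives that gave a value. The groups of 3 are too small for a check of single arrays that stand apart.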

How the results depend on the processing

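Under 3 settings calls fell over the whole array, and shares of all features are given beside the counts. With the 18S signal as a term, 3 genes fell in HPB-ALL (11 in the main analysis; 7.89%, beside 0.106% of all genes) and 3 differed between the lines (12; 7.89%, beside 1.64%). Of the probe sets, 4 fell in HPB-ALL (20; 3.57%, beside 0.0146%) and 4 differed (23; 3.57%, beside 0.618%). With the hybridisation controls as a term, 4 genes fell in KOPT-K1 (12; 10.5%, beside 2.56%) and 3 differed (7.89%, beside 1.27%). Of the probe sets, 9 fell in KOPT-K1 (30; 8.04%, beside 1.09%) and 3 differed (2.68%, beside 0.481%). Under quantile normalisation 8 genes fell in HPB-ALL (21.1%, beside 0.85%), 2 in KOPT-K1 (5.26%, beside 0.42%) and 2 differed (5.26%, beside 0.642%). Of the probe sets, 11 fell in HPB-ALL (9.82%, beside 0.399%), 3 in KOPT-K1 (2.68%, beside 0.282%) and 3 differed (2.68%, beside 0.216%). Without probe sets of the suffix _s_at or _x_at, where fewer were tested, 9 probe sets fell in HPB-ALL (16.1%, beside 0.983%), 9 in KOPT-K1 (16.1%, beside 7.55%) and 8 differed (14.3%, beside 9.74%). P4HA1 then turned to 0.31 in KOPT-K1 and lost its HPB-ALL call, at -0.03. With the median over probe sets, 11 genes fell in HPB-ALL (28.9%, beside 4.2%) and 12 in KOPT-K1 (31.6%, beside 12.9%). Only 8 genes then differed between the lines (12 in the main analysis; 21.1%, beside 15.4%). The differences of EPAS1, RORA, KDM4C and FAM162A lost their calls in that setting, as did EPAS1, KDM4C and CA12 in KOPT-K1. Apart from the stated constructions, the cause was not tested.

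Leaving out 1 array gave 9 to 11 genes lower in HPB-ALL, 8 to 14 in KOPT-K1 and 7 to 11 in the difference. Calls over all genes moved too, with 419 to 900 lower in HPB-ALL and 1804 to 2699 in KOPT-K1. Over probe sets, leaving out 1 array gave 13 to 20 lower in HPB-ALL, 19 to 30 in KOPT-K1 and 16 to 24 in the difference. Of all probe sets, 337 to 1131 were lower in HPB-ALL and 3394 to 5528 in KOPT-K1. The difference held 7 genes without HPB-ALL DMSO replicate 2, KOPT-K1 DMSO replicate 1 or KOPT-K1 DMSO replicate 3. Probe sets were at 13 in HPB-ALL without SAHM1 replicate 1, SAHM1 replicate 2 or DMSO replicate 3, and at 19 in KOPT-K1 without SAHM1 replicate 2 or DMSO replicate 1. Same-numbered SAHM1 and DMSO arrays deviated together with r of -0.06 to 0.05 in HPB-ALL and -0.01 to 0.07 in KOPT-K1. These values show no pairing by number, but with 3 arrays a group they cannot exclude it. With the replicate block, 11 genes fell in HPB-ALL (28.9%, beside 3.54% of all genes) and 10 in KOPT-K1 (26.3%, beside 12.1%). In the difference, 10 were called (26.3%, beside 15.2%).

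Calls of AK4, BNIP3 and MIR210HG in HPB-ALL held under all 21 alternatives, and those of VEGFA and BHLHE40 in KOPT-K1 under all 20 that gave a value. All 4 probe sets of VEGFA and both of BHLHE40 have the suffix _s_at or _x_at. The setting without such probe sets therefore gave no value for these genes and could not test their calls. A filter on low values was not run, since ratios hold no levels. Small changes are limited by 3 arrays a group.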

Other observations

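Of 30 further genes known to be induced by hypoxia, 28 were measured. In HPB-ALL, 4 fell (14.3%, beside 4.38% of all genes) and 3 rose (10.7%, beside 4.96%), with a median of 0.00. In KOPT-K1, 6 fell (21.4%, beside 13.2%) and 2 rose (7.14%, beside 5.85%), with a median of 0.015. DDIT4, an inhibitor of mTOR signalling, fell in both, at -0.79 in HPB-ALL and -1.15 in KOPT-K1. VLDLR, a lipoprotein receptor, rose in HPB-ALL, at 1.11, and fell in KOPT-K1, at -1.81. Of 21 genes for the turnover of the HIF alpha subunit and its cofactors, 20 were measured. In HPB-ALL, 2 of them fell (10%, beside 4.38% of all genes). In KOPT-K1, 4 fell (20%, beside 13.2%) and 2 rose (10%, beside 5.85%). CUL2, the scaffold of the VHL ubiquitin ligase, fell in KOPT-K1, at -0.45, while its partners RBX1, at 0.31, and ELOB, at 0.25, rose there.

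Of 10 T-lineage markers, 3 fell in HPB-ALL (30%, beside 4.38% of all genes) and 1 rose there (10%, beside 4.96%). That share lower is close to the 28.9% of the 38 hypoxia-response genes. None of these markers was called in KOPT-K1. Of 10 markers of other cell types, 8 were measured, none was called in HPB-ALL, and MS4A1 rose in KOPT-K1, at 0.32. Levels of these markers are not given by the ratios.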
